A study of Mus musculus with 18 samples.

Results

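Red blood cell genes were followed in liver RNA through 8 genes: the adult β-globin genes Hbb-bs and Hbb-bt, the α-globin genes Hba-a1 and Hba-a2, and Alas2, Slc4a1, Klf1 and Epb42. They were taken by symbol from the 35441 genes of the deposited count table, and all 8 were listed there. The set was proposed with earlier results of these data known, so the levels and differences of these genes are given as a description and carry no p value. Where genes of the set are counted as called, the count only places them in the fit of all genes, beside the share of all genes called, and supports nothing. Shares of all genes called are those of the main fit, and were not computed with a mouse left out or under another setting. RNA came from the livers of 18 male mice. WT mice, untreated Lipa-/- mice and Lipa-/- mice given the vector rAAV8.hAAT.LIPA (treated mice) were taken at 12- and at 34-weeks post-injection, 3 per group and time point, which the labels give as 3 and 8 months. The Lipa-/- mice lack exon 4 of Lipa, the gene of lysosomal acid lipase, in all tissues after deletion by a CMV-driven Cre, on a C57BL/6N background, and the WT mice were littermates. The treated mice carry the same deletion, and their vector expresses a tagged human LIPA from the hAAT promoter, which is active in hepatocytes. The vector was injected into young adults. Most of the study's untreated Lipa-/- mice of 34-weeks were killed on reaching an ethical endpoint, and the day on which each was taken is not in the labels. The mice of the time points have different study codes, and Lipa-/- mouse 5 of 12-weeks has a code of its own, so time and study code cannot be told apart.

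Adult haemoglobin is a tetramer of α- and β-globin chains, each of which holds a haem group. Red cell precursors make the chains and the haem in large amounts, with ALAS2 as the enzyme of the first step of erythroid haem synthesis and KLF1 as an activator of β-globin transcription. Slc4a1 encodes band 3, the anion exchanger of the red cell membrane, and Epb42 encodes protein 4.2, which binds band 3 to the membrane skeleton. Circulating red cells still carry globin mRNA, so RNA of an unperfused organ can hold it. The adult liver is not a main site of red cell formation, although it made red cells in the foetus. In bulk liver RNA, fewer cells of a type and less RNA per cell cannot be told apart.

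The sequences before the start sites are shown because the genes of the set had unlike patterns in these livers. They come from RefSeq (build GRCm38.p6, where 7 of the 8 genes had an entry), and the last 160 bases before the start are printed from 5′ to 3′ for 4 genes. Capitals mark matches, on either strand, to a GATA box (AGATAA and TGATAA, each also with a final G in place of A), a CACCC box (CCNCNCCC) or a CCAAT box (CCAAT). Hbb-bs is shown from chr7:103827929-103828088 (minus strand), Hba-a1 from chr11:32283512-32283671 (plus), Alas2 from chrX:150547257-150547416 (plus) and Klf1 from chr8:84901822-84901981 (plus).
Hbb-bs: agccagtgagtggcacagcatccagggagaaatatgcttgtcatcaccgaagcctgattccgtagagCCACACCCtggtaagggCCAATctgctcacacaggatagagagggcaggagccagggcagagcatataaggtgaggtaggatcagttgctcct
Hba-a1: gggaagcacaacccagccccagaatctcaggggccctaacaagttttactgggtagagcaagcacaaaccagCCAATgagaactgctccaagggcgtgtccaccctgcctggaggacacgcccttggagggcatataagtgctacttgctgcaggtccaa
Alas2: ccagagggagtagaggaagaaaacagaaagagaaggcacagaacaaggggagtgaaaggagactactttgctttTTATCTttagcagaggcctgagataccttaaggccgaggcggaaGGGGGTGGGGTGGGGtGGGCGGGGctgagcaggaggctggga
Klf1: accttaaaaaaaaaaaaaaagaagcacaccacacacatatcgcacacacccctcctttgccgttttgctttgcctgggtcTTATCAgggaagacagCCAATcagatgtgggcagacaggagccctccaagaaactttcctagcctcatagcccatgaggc
Over 250 bases before the start, a GATA box was matched in 26.5%, a CACCC box in 45.9% and a CCAAT box in 33.8% of 32851 promoters. Among the 7 promoters, the CACCC box was matched in Hbb-bs, Hbb-bt and Alas2. Alas2 held 4 such matches, which overlap in part, on the reverse strand between positions -42 and -19. The CCAAT box was matched in both β-globin genes, both α-globin genes and Klf1. The GATA box was matched in all but Hbb-bt, at positions -86 to -81 (counted back from the start) in Alas2 and -80 to -75 in Klf1, and before the printed stretch in Hbb-bs and Hba-a1. A match describes the letters only.

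Reads from the coding sequence can hardly tell the genes of a globin pair apart. The coding sequences of Hba-a1 and Hba-a2 (426 bases each) differ at 1 base, and so do those of Hbb-bs and Hbb-bt (441 bases each), while Hba-a1 and Hbb-bs are 55.1% identical. The canonical transcripts differ more, at 87.5% identity with gaps counted for the α-globin pair and 85.8% for the β-globin pair. Reads outside the coding sequence can therefore differ between the genes of a pair. The 250 bases before the start are 97.6% identical between Hba-a1 and Hba-a2 and 68.4% between Hbb-bs and Hbb-bt. On GRCm39, the build of the files, the β-globin genes lie on the minus strand of chromosome 7, Hbb-bt from 103461727 to 103465047 and Hbb-bs from 103475730 to 103482989. The α-globin genes lie on the plus strand of chromosome 11, Hba-a1 from 32233186 to 32234504 and Hba-a2 from 32246168 to 32247320. Alas2 is on chromosome X (149330371 to 149353634, plus), Klf1 on chromosome 8 (85628557 to 85631934, plus), Slc4a1 on chromosome 11 (102239650 to 102257029, minus) and Epb42 on chromosome 2 (120848372 to 120867553, minus). All values refer to whole genes, exons joined.

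The libraries held 17527848 to 25833134 reads assigned to genes, and 14533 genes with more than 100 reads over all mice were tested. Levels are CPM, read counts scaled to a common library size with TMM factors, unless TPM (transcript abundance per length within a mouse) is named. A gene was called when its log2 fold change exceeded 1 in size at an edgeR adjusted p under 0.05. Of the 8 genes, 7 were tested, and Epb42 (36 reads in all) was not. For a gene at 0, the counting limit is 3 reads, or 0.0946 to 0.291 CPM in these libraries, which covers counting error only. Murine Lipa was at 202 to 323 CPM in WT mice and at 16.7 to 37 CPM in all mice carrying the deletion. The human transgene hLIPA was at 523 to 2746 CPM in treated mice, and of the other mice only WT mice 1 and 2 of 34-weeks had reads of it, at 0.059 and 0.906 CPM.

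Globin mRNA was present in every liver, and its level varied several-fold among the mice of a group. At 12-weeks, Hbb-bs was at 186, 100 and 28.4 CPM in WT mice 1, 2 and 3. It was at 91.8, 93.9 and 133 CPM in Lipa-/- mice 5, 8 and 9 and at 165, 215 and 192 CPM in treated mice 10, 11 and 12. In CPM, the Lipa-/- mice lay within the range of the WT mice, and the treated mice lay above the Lipa-/- mice. The latter depended on the scaling. In TPM, treated mice 10, 11 and 12 were at 190, 367 and 255, and Lipa-/- mice 5, 8 and 9 at 269, 288 and 419, with overlap. At 34-weeks, Hbb-bs was at 164, 65.7 and 161 CPM in WT mice 1, 2 and 3. In Lipa-/- mice 4, 5 and 6 it was at 205, 456 and 256 CPM, and in treated mice 9, 11 and 12 at 12.6, 70.6 and 267 CPM. All Lipa-/- mice of 34-weeks lay above all WT mice, while the treated mice spread from below the lowest WT mouse to above the second highest Lipa-/- mouse.

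Hba-a1 was at 46.5, 36.5 and 84.2 CPM in WT mice of 34-weeks, at 96.2, 180 and 131 CPM in Lipa-/- mice and at 14.8, 40.6 and 111 CPM in treated mice. Here too the Lipa-/- mice lay above the WT mice, and the highest treated mouse lay between the lowest and the next Lipa-/- mouse. At 12-weeks it was at 67.4, 35.3 and 15.8 CPM in WT mice, 53.5, 35.7 and 39.8 CPM in Lipa-/- mice and 10.9, 50.9 and 56 CPM in treated mice, and the 3 groups overlapped. Hba-a2 ranged from 17.2 to 270 CPM and Hbb-bt from 2.72 to 62.5 CPM over the 18 mice, with the highest value of each in Lipa-/- mouse 5 of 34-weeks.

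**Figure D1:**
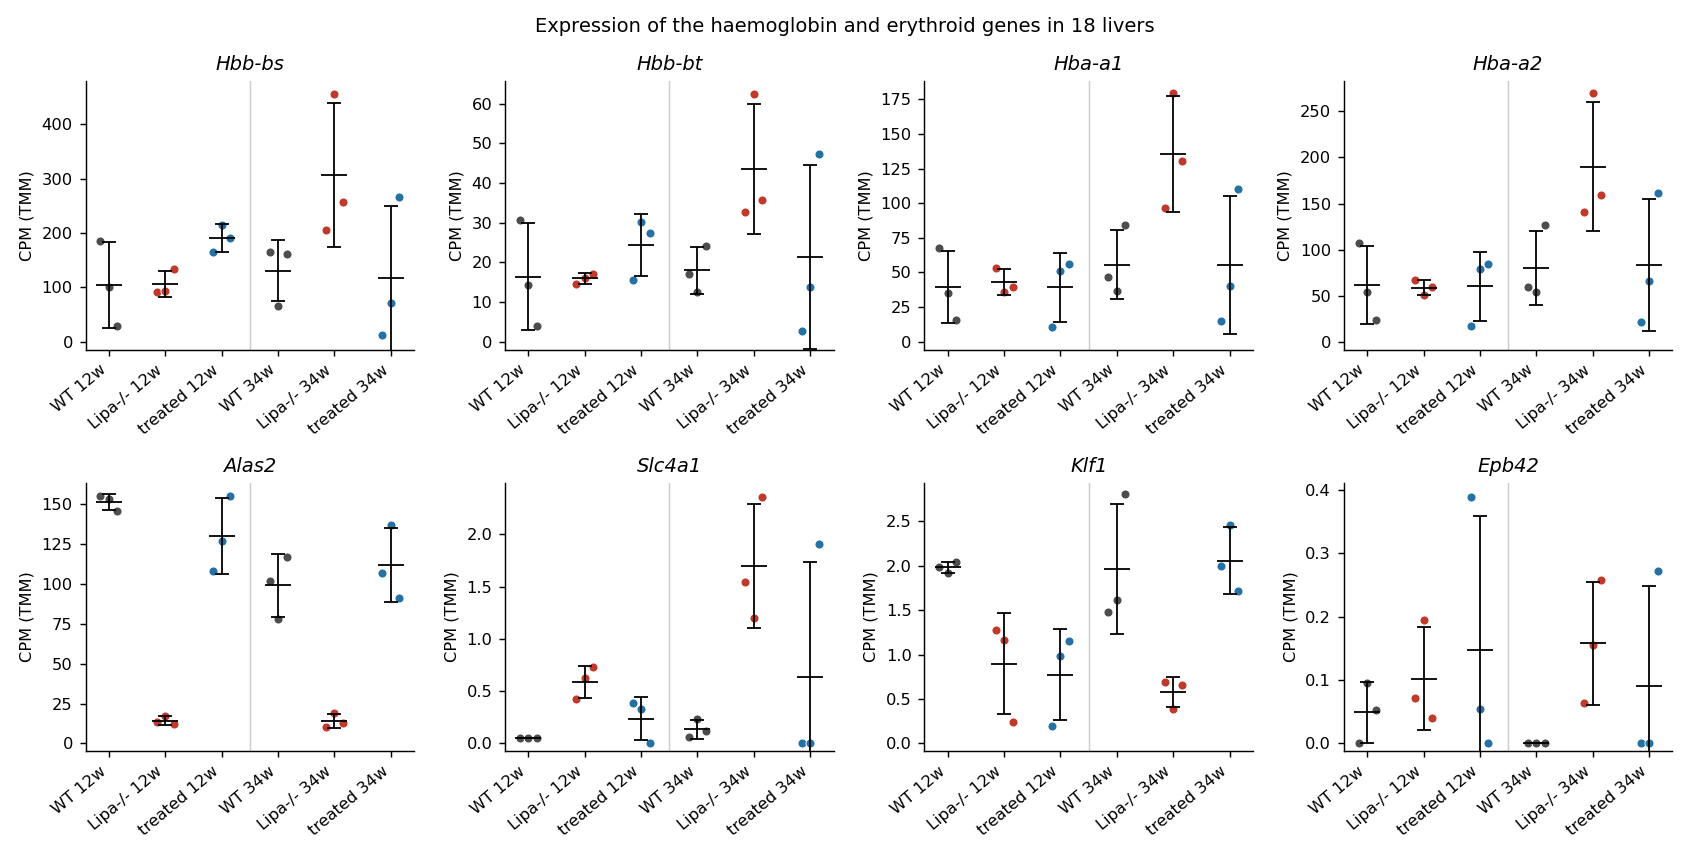
Expression of the 8 genes in CPM (linear axes from 0, a scale per gene) in the 3 mice of each of 6 groups. Points are mice, horizontal bars the mean and vertical bars the SD, cut off at the lower edge of the axis. Alas2 sat between 10.6 and 19.2 CPM in the 6 Lipa-/- mice and between 78.2 and 155 CPM in all other mice, whereas the globin genes were highest in Lipa-/- mice of 34-weeks.

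Since paralogues share reads, the 4 globin genes were also summed. The sum was 222 ± 160 CPM in WT, 224 ± 26.5 CPM in Lipa-/- and 314 ± 92.1 CPM in treated mice at 12-weeks (SD, n = 3 each). The values of 34-weeks were 284 ± 114, 675 ± 259 and 276 ± 277 CPM (SD, n = 3 each). The Lipa-/- mean of 34-weeks was 2.38 times that of WT mice, and 1.86 times without Lipa-/- mouse 5. It was 3.77 times the WT mean in TPM and 3.65 times when CPM were scaled by total reads alone. Lipa-/- mice of 34-weeks were at 3.02 times the Lipa-/- mean of 12-weeks, again without overlap. The treated mean of 34-weeks fell to 0.426 of the WT mean without treated mouse 12. Globin reads made up 0.00545% to 0.138% of a library.

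In fitted values, the 4 globin genes differed between Lipa-/- and WT mice by -0.07 to 0.12 on the log2 scale at 12-weeks (SE 0.65 to 0.74). At 34-weeks they differed by 1.23 for Hbb-bs (SE 0.75), 1.28 for Hbb-bt (SE 0.71), 1.28 for Hba-a1 (SE 0.65) and 1.25 for Hba-a2 (SE 0.66). In a fit of only the 6 mice of 34-weeks they differed by 1.30 to 1.35, and under scaling by total reads by 1.84 to 1.90.

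The split within each globin pair was steadier than the level. Hbb-bs held 82.2% to 91.4% of the β-globin reads of a mouse, and the TPM of Hba-a2 was 1.75 to 2.34 times that of Hba-a1. The balance of α- to β-globin was less even: the summed TPM of Hba-a1 and Hba-a2 was 0.624 to 1.33 times that of the β-globin genes in WT mice and 0.718 to 1.22 times in Lipa-/- mice. In treated mice it was 0.17, 0.579 and 0.704 at 12-weeks and 2.56, 1.40 and 0.948 at 34-weeks. Treated mouse 10 of 12-weeks and treated mouse 9 of 34-weeks lay outside the range of the other mice. The canonical transcripts have a GC content of 56.8% (Hba-a1) and 57% (Hba-a2) against 50.9% (Hbb-bs) and 50.7% (Hbb-bt), and the part of GC content in this ratio was not tested.

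Alas2 was lower in every Lipa-/- mouse than in any other mouse. At 12-weeks it was at 155, 153 and 146 CPM in WT mice 1, 2 and 3, at 13.6, 17.2 and 12.2 CPM in Lipa-/- mice 5, 8 and 9, and at 108, 127 and 155 CPM in treated mice 10, 11 and 12. At 34-weeks it was at 102, 78.2 and 117 CPM in WT mice, at 10.6, 19.2 and 12.5 CPM in Lipa-/- mice 4, 5 and 6, and at 107, 137 and 91.3 CPM in treated mice 9, 11 and 12. Treated and WT mice overlapped at both time points. The log2 fold change of Lipa-/- against WT mice was -3.40 (SE 0.26) at 12-weeks and -2.81 (SE 0.26) at 34-weeks. Treated against Lipa-/- mice it was 3.18 (SE 0.26) and 2.99 (SE 0.26), and treated against WT mice -0.22 (SE 0.24) and 0.17 (SE 0.24). When any 1 mouse was removed, the value for Lipa-/- against WT mice stayed between -3.55 and -3.29 at 12-weeks and between -3.09 and -2.61 at 34-weeks. With offsets for the deposited gene lengths, it was -2.78 at 12-weeks.

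Per length, Alas2 was at 52.2 to 96.6 TPM in WT mice, 12.2 to 20.4 TPM in Lipa-/- mice and 43.7 to 85.7 TPM in treated mice. Its TPM did not follow that of globin: it amounted to 6.76% to 54.1% of the summed globin TPM in WT mice and to 4.41% to 46.1% in treated mice. In Lipa-/- mice it was 1.52% to 3.01% at 12-weeks and 0.519% to 0.698% at 34-weeks.

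The deposited effective length of Alas2, the mean length of its transcripts weighted by their abundance, was a readout that the choice of genes did not use. It was 1633, 1524 and 1476 bases in WT mice of 12-weeks, and 745, 1077 and 1266 bases in Lipa-/- mice. At 34-weeks it was 1455, 1423 and 1692 bases in WT mice and 1244, 1403 and 1206 bases in Lipa-/- mice. The Lipa-/- mice lay below the WT mice at both time points, which held for 2.83% of all tested genes. Treated mice of 12-weeks were at 1107, 988 and 1296 bases, also below the WT mice although their Alas2 level overlapped with WT mice, and treated mice of 34-weeks at 1728, 1581 and 1413 bases. The annotation (GENCODE, GRCm39) lists 24 Alas2 transcripts, 22 of them of 1676 to 2188 bases and 2 others of 485 and 569 bases. These 2 are a retained intron from 149337033 to 149340659 and a transcript without a defined coding sequence from 149349386 to 149353618. The effective length was noticed after its values were seen and was not tested.

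**Figure D2:**
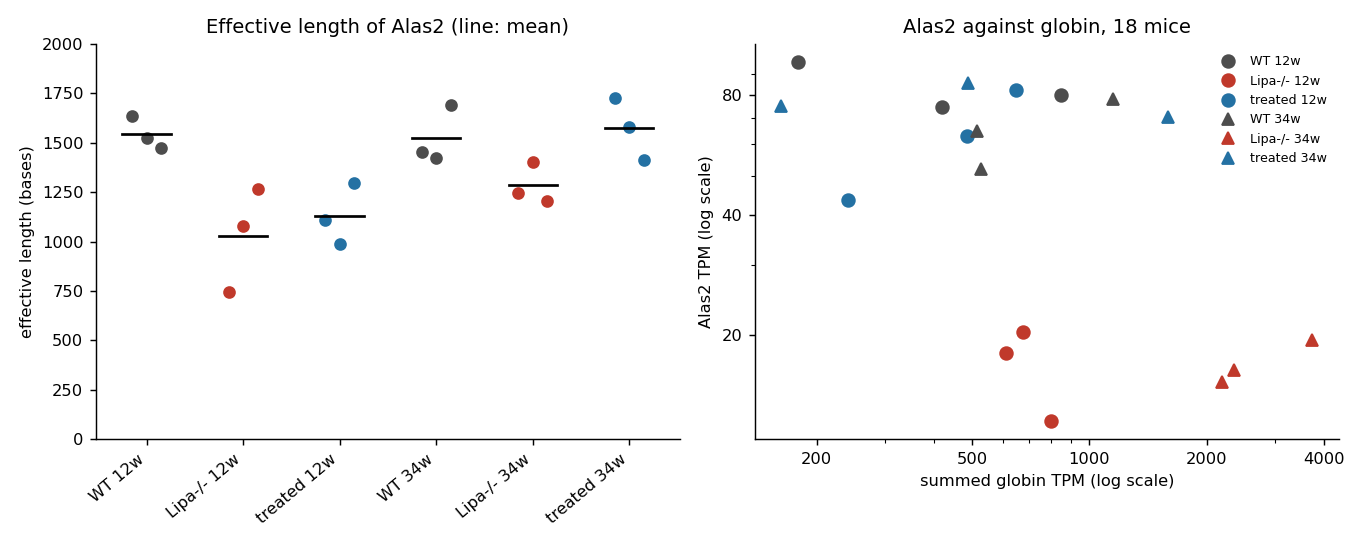
Left, effective length of Alas2 in bases for each of 18 mice (points; lines are means of 3 mice). Right, Alas2 TPM against summed globin TPM, both on log axes, with circles for 12-weeks and triangles for 34-weeks. The 6 Lipa-/- mice lie at or below 20.4 TPM of Alas2 whatever their globin level, from 613 to 3733 TPM.

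Klf1 was at 1.98, 1.91 and 2.04 CPM in WT mice of 12-weeks, at 1.28, 1.17 and 0.242 CPM in Lipa-/- mice 5, 8 and 9 and at 0.194, 0.978 and 1.15 CPM in treated mice 10, 11 and 12. Klf1 of 34-weeks was at 1.47, 1.62 and 2.80 CPM in WT mice, at 0.694, 0.386 and 0.662 CPM in Lipa-/- mice and at 1.99, 2.46 and 1.71 CPM in treated mice. In CPM, Lipa-/- mice were below WT mice at both time points, as were the treated mice of 12-weeks. At 34-weeks the treated mice overlapped with WT mice. In TPM, Lipa-/- and WT mice of 34-weeks overlapped, with Lipa-/- mouse 4 at 1.03 and WT mouse 1 at 0.836. The log2 fold change of Lipa-/- against WT mice was -1.13 (SE 0.53) at 12-weeks and -1.75 (SE 0.55) at 34-weeks, and treated against Lipa-/- mice it was -0.17 (SE 0.57) and 1.80 (SE 0.55). These values rest on 2 to 72 reads per mouse.

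Slc4a1 was sparse and was higher in Lipa-/- mice at both time points, unlike the globin genes at 12-weeks. WT mice of 12-weeks had 1 read each, Lipa-/- mice 5, 8 and 9 had 12, 16 and 18 reads, and treated mice 10, 11 and 12 had 4, 6 and 0 reads. At 34-weeks, WT mice had 1, 6 and 3 reads, Lipa-/- mice 49, 31 and 64 reads and treated mice 0, 0 and 49 reads. Lipa-/- mice lay above WT mice at both time points, and treated mouse 12 of 34-weeks lay among the Lipa-/- mice. Over 46 and 3 reads, the ratio of Lipa-/- to WT mice at 12-weeks was 11.4 (95% exact interval 3.67 to 57.5). At 34-weeks it was 11.6 over 144 and 10 reads (6.10 to 24.6), intervals that cover counting error only. They pool the reads of the 3 mice of a group and hold no spread between mice. They are no test of Slc4a1, which was chosen with earlier results known and passed the read minimum through the Lipa-/- mice. The fitted log2 fold change was 3.39 (SE 1.41) and 3.52 (SE 1.18). Epb42 had 3 reads in WT, 8 in Lipa-/- and 5 in treated mice of 12-weeks, and 0, 13 and 7 reads at 34-weeks. All 7 reads of the treated group of 34-weeks came from mouse 12.

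Between Lipa-/- and WT mice, 0 of the 7 genes were called higher and 1 lower at 12-weeks, where 20.2% of all tested genes were called higher and 9.06% lower (29.3% in either direction). With DESeq2, 1 was called higher. At 34-weeks, 1 was called higher and 2 lower, against 20.5% and 15.7% of all tested genes (36.3% in either direction). In CPM, the groups did not overlap in 3 of the 7 genes at 12-weeks and in 7 at 34-weeks, which held for 52.7% and 60.3% of all tested genes. In TPM, Klf1 overlapped at 34-weeks. Leaving out WT mouse 3 of 34-weeks lowered the calls of 34-weeks from 3 to 1. Between treated and WT mice, none of the 7 was called by edgeR at 12-weeks (13.6% of all genes higher and 12% lower, 25.5% in all) or at 34-weeks (0.131% and 0.0895%, 0.22% in all). At an unadjusted p under 0.05 there were 1 and 0, and with DESeq2 1 and 0. Treated and WT mice did not overlap in 1 of the 7 genes at 12-weeks and 0 at 34-weeks, against 52.5% and 8.89% of all genes. Between treated and Lipa-/- mice, 1 of the 7 was called higher at 12-weeks and 2 at 34-weeks, and none was called lower. Of all genes, 16.2% were called higher and 25.3% lower at 12-weeks (41.5% in all), and 12.8% and 18.6% at 34-weeks (31.5% in all). No overlap between these mice was found in 3 of the 7 genes at 12-weeks and 2 at 34-weeks, against 59.3% and 55.9% of all genes.

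The values of the last comparison moved with treated mouse 12 of 34-weeks. Without it, 7 genes were called between treated and Lipa-/- mice in place of 2. Alas2 and Klf1 were then higher in treated mice, and the 4 globin genes and Slc4a1 lower. The share of all genes called was 31.5% with this mouse and was not computed without it. The count of 7 thus has no share beside it and shows nothing particular to these genes. Hbb-bs was then at -2.90, Hbb-bt at -2.43, Hba-a1 at -2.32 and Hba-a2 at -2.15 on the log2 scale, against -1.39, -1.03, -1.29 and -1.20 with it. Slc4a1 had no read in the other treated mice of 34-weeks. Without Lipa-/- mouse 5 of 34-weeks, 1 of the 7 was called.

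**Figure D3:**
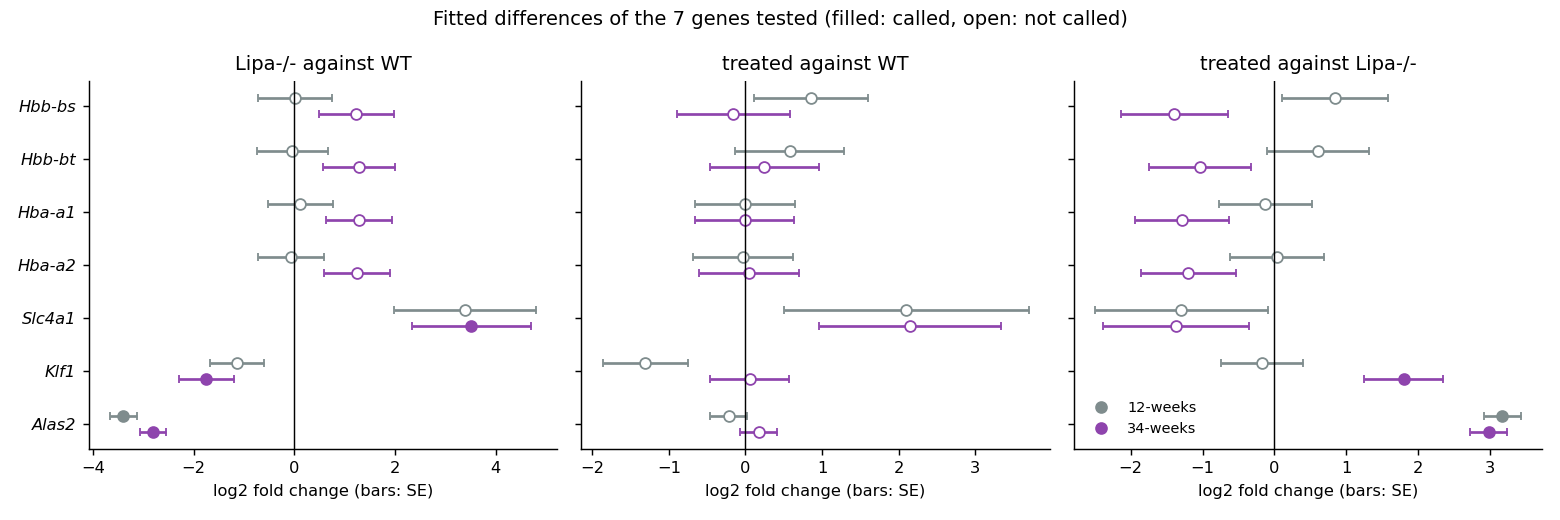
Fitted log2 fold changes (points) with SE (bars) of the 7 genes tested, between Lipa-/- and WT, treated and WT, and treated and Lipa-/- mice, in grey for 12-weeks and purple for 34-weeks. Filled points were called, which is a description and no test of these genes. Alas2 was at -3.40 and -2.81 in Lipa-/- against WT mice, and Slc4a1 at 3.39 and 3.52.

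Between the time points, none of the 7 genes was called by edgeR in WT (0.22% of all genes higher and 0.103% lower, 0.323% in all), Lipa-/- (0.0344% and 0.461%, 0.495% in all) or treated mice (17.5% and 14.5%, 32% in all). At an unadjusted p under 0.05 there were 1, 2 and 1 genes, and with DESeq2 0, 0 and 1. In Lipa-/- mice, the 4 globin genes were 1.45 to 1.70 higher at 34-weeks on the log2 scale (SE 0.66 to 0.75), and 5 of the 7 genes, these and Slc4a1, did not overlap (27.4% of all genes). In WT mice 2 of the 7 did not overlap between the time points (13% of all genes), and in treated mice 1 (53.8%). The 2 of WT mice included Slc4a1, which had 1 read in each WT mouse of 12-weeks (at most 0.0536 CPM). It also had 1 read in WT mouse 1 of 34-weeks (0.059 CPM), so this gap lay under the counting limit. Without treated mouse 12 of 34-weeks, 2 genes were called lower at 34- than at 12-weeks in treated mice. The difference of Lipa-/- from WT mice did not change between the time points by a call in any of the 7 genes (0 also at an unadjusted p under 0.05 and with DESeq2, and 0.0206% of all genes were called higher and 0.0413% lower, 0.0619% in all). Neither did that of treated mice (0 by the same counts, against 8.58% of all genes higher and 9.83% lower, 18.4% in all), although 1 gene was called without treated mouse 12 of 34-weeks.

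Deviations from the group means were correlated over the 18 mice (log2 CPM, prior count 2) as a description; the mice share libraries and the pairs share reads. Pearson's r was 0.99 between Hba-a1 and Hba-a2, 0.97 between Hbb-bs and Hbb-bt and 0.82 to 0.91 between α- and β-globin genes. Between Alas2 and the globin genes it was 0.15 to 0.32, and between Klf1 and the globin genes -0.10 to 0.38. Alas2 and Slc4a1 were at -0.55 (Spearman's rho -0.57), and -0.51 without the 2 mice farthest from the median. Slc4a1 and the globin genes were at 0.26 to 0.50 (Spearman's rho -0.02 to 0.05), and without the 2 farthest mice at -0.20 and -0.22 for Hbb-bs and Hbb-bt and 0.29 and 0.26 for Hba-a1 and Hba-a2. The genes whose deviations were most like the mean of the 7, of 12593 ranked, were Id1 (r 0.81), Ly96 (0.80), Prxl2a (0.80), Nmd3 (0.80) and Unc119 (0.79), which fell to between 0.55 and 0.78 without the 2 farthest mice.

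Other red cell genes came from a list of 67 in 6 groups, of which 64 were in the table and 42 were tested. The list was written with earlier results of these data known. The other globin genes, which are embryonic or minor, were at or near 0: none of the 6 listed was tested, and their sum was at most 0.117 CPM. Ahsp, Hbb-b1 and Hbb-b2 were not analysed here. A defining gene of red cell precursors was close to 0 as well. Gata1, the transcription factor of the erythroid lineage, had no read in the treated mice other than mouse 12 of 34-weeks, where it was at 0.389 CPM. It had no read in WT mice other than mouse 1 of 34-weeks (3 reads), and was at 0 to 0.177 CPM in Lipa-/- mice.

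The 22 listed genes below the read minimum, Gata1 among them, were summed after their values were seen, as a description without a test. WT mice had 5, 4 and 8 reads of them at 12-weeks and 7, 10 and 8 at 34-weeks. Lipa-/- mice had 37, 48 and 47 reads at 12-weeks and 82, 55 and 89 at 34-weeks. Treated mice had 0, 5 and 1 reads at 12-weeks and 6, 10 and 132 at 34-weeks, the last in mouse 12. The Lipa-/- mice and this treated mouse stood above all other mice. Of the 22 genes, 12 to 16 had reads in a Lipa-/- mouse and 15 in treated mouse 12, against 0 to 7 in the other mice. The most abundant were Ermap (94 reads in all), Rhd (68) and Ank1 (67), genes of red cell membrane or skeleton proteins. Epo, the gene of erythropoietin, had 3 and 10 reads in Lipa-/- mice of 12- and 34-weeks and none in WT or treated mice.

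**Figure D4:**
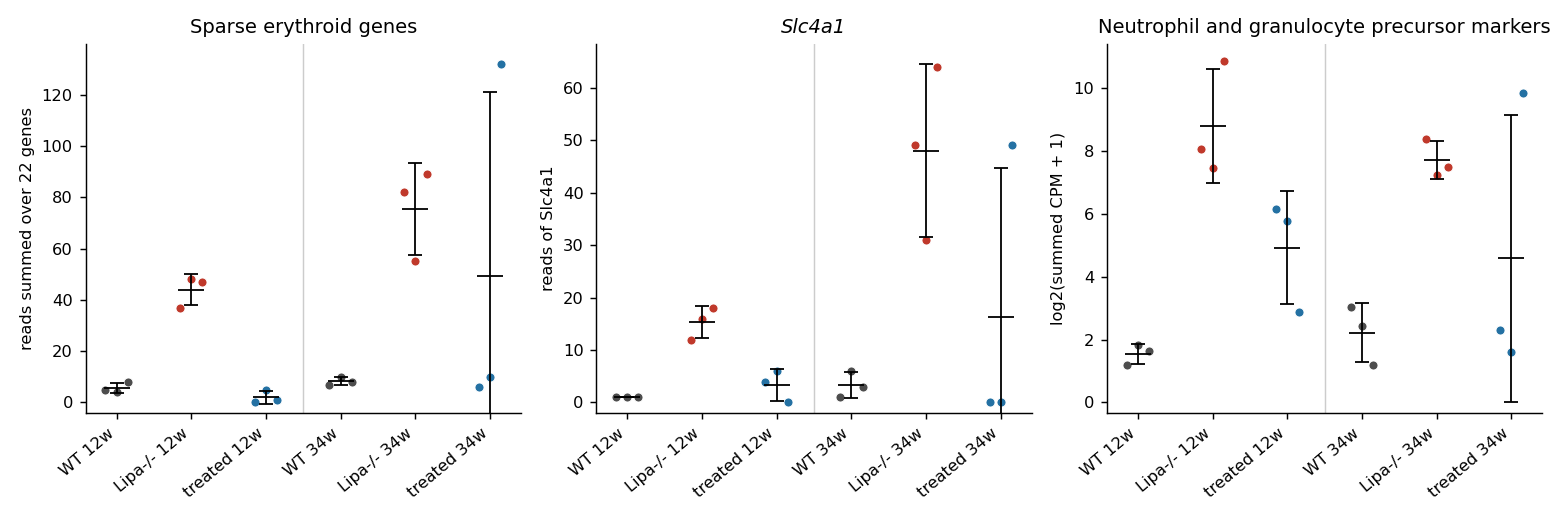
Reads summed over the 22 red cell genes below the read minimum (left), reads of Slc4a1 (middle) and log2 of the summed CPM + 1 of 11 neutrophil and granulocyte precursor markers (right) in each mouse, with mean and SD (bars end at the lower edge of the axis where they would pass it). Treated mouse 12 of 34-weeks had 132 reads of the 22 genes, 49 reads of Slc4a1 and 914 CPM of the markers.

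Neutrophil and granulocyte precursor markers were high in the same mice. The sum of 11 neutrophil and granulocyte precursor markers was 1.28 to 7.26 CPM in WT mice and 149 to 1863 CPM in Lipa-/- mice. In treated mice it was 6.29 to 69.7 CPM at 12-weeks, 3.90 and 2.08 CPM in mice 9 and 11 of 34-weeks and 914 CPM in mouse 12, where all 11 were detected. S100a9 and S100a8, its most abundant genes, were at 267 and 226 CPM in that mouse. The sum of 11 platelet and megakaryocyte markers, led by Clec1b and Pf4, was 6.28 to 12.9 CPM in WT and 12.9 to 32.1 CPM in Lipa-/- mice. It was 7.80 to 18.8 CPM in treated mice, apart from 50.3 CPM in mouse 12 of 34-weeks. Its 2 leading genes differed. Clec1b overlapped, at 4.08 to 8 CPM in WT and 3.38 to 17.7 CPM in Lipa-/- mice. Pf4 did not, at 0.42 to 0.78 and 5.2 to 8.6 CPM. The part of these cells in the globin and Slc4a1 levels was not tested. The sum of 6 B cell markers (Ighm and Cd79b highest) overlapped between the groups, at 30.4 to 128, 17.4 to 120 and 21.1 to 125 CPM in WT, Lipa-/- and treated mice, with 42.9 CPM in treated mouse 12 of 34-weeks. T cell markers (6, led by Cd4 and Cd8a) were at 2.10 to 5.93, 6.98 to 15.9 and 7.97 to 12 CPM. Macrophage markers (7, led by Cd68 and Cd5l) were at 110 to 329, 362 to 818 and 188 to 592 CPM, and endothelial markers (6, led by Clec4g and Stab2) at 113 to 158, 65.4 to 130 and 84.1 to 185 CPM. Single genes of both sums went opposite ways between Lipa-/- and WT mice. Of the macrophage markers, 4 were called higher and 1 lower at 12-weeks, and 3 and 2 at 34-weeks. Of the endothelial markers, 1 was called higher and 2 lower at each time point. Of all tested genes, 20.2% and 9.06% were called higher and lower at 12-weeks and 20.5% and 15.7% at 34-weeks. Hepatocyte markers (6, led by Alb and Apoa1) were at 60199 to 80178, 23662 to 58671 and 50162 to 107899 CPM.

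Haem synthesis and the mitochondrial transport of haem, its precursors and iron were examined in 14 genes, Alas1 among them and Alas2 left out, all detected in every mouse. In Lipa-/- against WT mice 0 of the 14 were called higher and 4 lower at 12-weeks, and 0 and 10 at 34-weeks, where 9.06% and 15.7% of all tested genes were called lower. Their median log2 fold change was -0.84 at 12-weeks and -1.36 at 34-weeks, against 0.02 and -0.03 over all tested genes. The 6 hepatocyte markers had medians of -0.88 and -1.13, and 2 and 4 of them were called lower. In treated against Lipa-/- mice, 9 of the 14 were called higher and 0 lower at each time point, against 16.2% and 12.8% of all genes called higher. Their medians were then 1.17 and 1.08, and those of the hepatocyte markers 0.71 and 1.08, with 1 and 3 of the 6 called higher. The part of hepatocytes in these differences was not tested. Under scaling by total reads, which moved the median of all genes by 0.47 and 0.63, 1 and 4 were called lower between Lipa-/- and WT mice, with medians of -0.36 and -0.69 against 0.49 and 0.60 over all genes. The treated against Lipa-/- counts were then 1 higher and 2 lower at 12-weeks and 3 higher and 0 lower at 34-weeks. In that comparison the scaling moved the median of all genes by -0.87 and -0.54.

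Cpox, which makes protoporphyrinogen from coproporphyrinogen, had 124, 101 and 150 CPM in WT, 34, 33.5 and 27.4 CPM in Lipa-/- and 68, 60.2 and 81.5 CPM in treated mice at 12-weeks. The groups did not overlap, and the log2 fold change of Lipa-/- against WT mice was -1.98 (SE 0.24, edgeR adjusted p = 9.03e-06). At 34-weeks it was -2.66 (SE 0.25, edgeR adjusted p = 5.06e-07), and in treated against Lipa-/- mice it was 2.25 (SE 0.25, adjusted p = 3.36e-06). Abcb10 and Abcb6, mitochondrial or membrane transporters linked to haem and porphyrins, were lower in Lipa-/- mice by log2 fold changes of -1.46 and -1.40 at 12-weeks and -2.05 and -2.08 at 34-weeks (SE 0.19 to 0.21). Uros, the uroporphyrinogen synthase, was lower at 34-weeks (-1.81, SE 0.43, edgeR adjusted p = 0.00246). It was higher in treated than in WT mice at 12-weeks (1.55, SE 0.42, edgeR adjusted p = 0.0124), with 183 CPM in mouse 10 against 62.7 and 60.8 CPM in mice 11 and 12. Alas1 encodes the form of ALAS that hepatocytes use. In Lipa-/- against WT mice its log2 fold change was -1.26 (SE 0.49, edgeR adjusted p = 0.0525) at 12-weeks and -0.06 (SE 0.49, adjusted p = 0.933) at 34-weeks. It was lower in treated than in WT mice at 12-weeks (-2.41, SE 0.51, edgeR adjusted p = 0.00478).

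**Figure D5:**
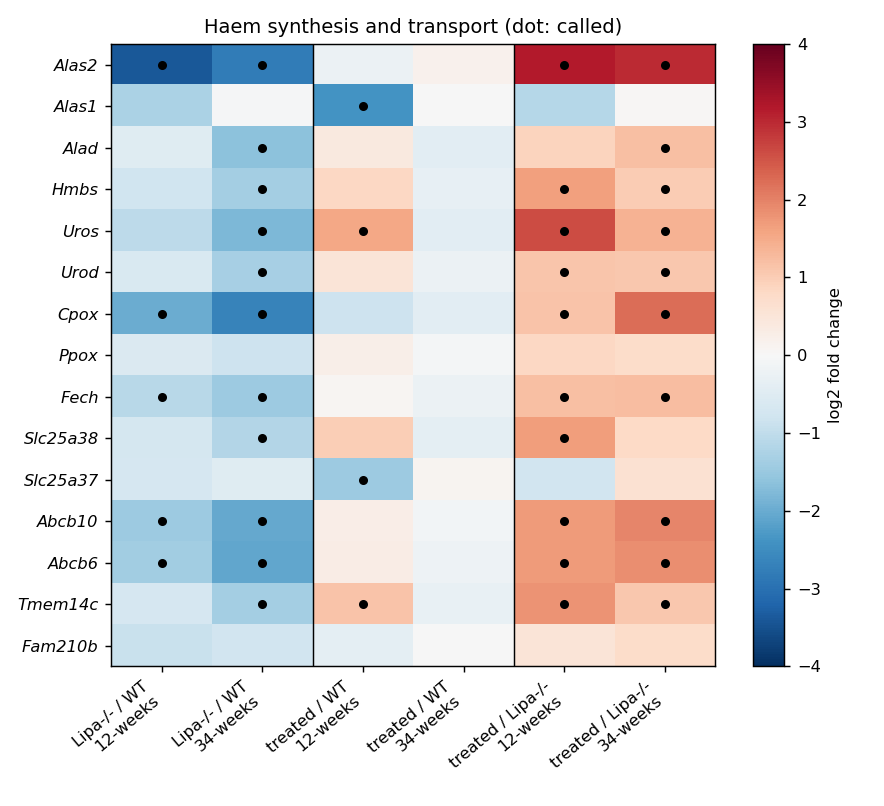
Fitted log2 fold changes (colour, blue lower and red higher) of Alas2 and 14 genes of haem synthesis and transport in 6 comparisons. Dots mark called genes, and for Alas2, a gene of the set, they are a description and no test. In Lipa-/- against WT mice of 34-weeks, 10 of the 14 genes were called lower, against 15.7% of all tested genes.

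The other groups of the list went in both directions. Of all 42 tested genes, between Lipa-/- and WT mice 6 were called higher and 6 lower at 12-weeks, and 7 and 14 at 34-weeks. Of all tested genes, 20.2% and 9.06% were called at 12-weeks and 20.5% and 15.7% at 34-weeks. The haem genes gave 4 and 10 of the lower calls. Lmo2, a cofactor of blood cell transcription factors, rose by 2.60 (SE 0.26, edgeR adjusted p = 9.76e-07) at 12-weeks and 2.86 (SE 0.26, adjusted p = 3.57e-07) at 34-weeks. In treated against Lipa-/- mice Lmo2 was at -2.33 and -2.22 (edgeR adjusted p = 4.89e-06 and 4.41e-06). Tmod1, a cap of actin filaments in the red cell skeleton and elsewhere, was at 0.239 to 0.545 CPM in WT and 1.01 to 6.92 CPM in Lipa-/- mice. Its log2 fold changes were 3.56 and 3.29 (SE 0.74 and 0.69, edgeR adjusted p = 0.00113 and 0.000921). Nfe2, a transcription factor of red cell and platelet precursors, was called higher at 12-weeks only (2.11, SE 0.45, edgeR adjusted p = 0.00153), against 1.03 (adjusted p = 0.0682) at 34-weeks, and the change between the time points was not called. The carbonic anhydrases went opposite ways. Car2 was at 3.61 to 5.49 CPM in WT and 12 to 24 CPM in Lipa-/- mice, with log2 fold changes of 2.04 and 1.58 (edgeR adjusted p = 0.000426 and 0.00222). Car1, the abundant form of red cells, was at 1.46 to 5.86 CPM in WT and 0.116 to 1.38 CPM in Lipa-/- mice, with -2.18 and -2.74 (edgeR adjusted p = 0.00328 and 0.00073). Tspan33, a membrane protein of red cell precursors, had log2 fold changes of -1.70 and -1.13 (edgeR adjusted p = 0.000204 and 0.00388). Tent5c was called higher at 34-weeks (1.57, SE 0.30, edgeR adjusted p = 0.00044).

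In the group of 6 genes for erythropoietin, stem cell factor and iron uptake, 0 were called higher in Lipa-/- than in WT mice, and 0 and 1 lower at 12- and 34-weeks, the last Tfr2, the second transferrin receptor (-1.31, SE 0.23). In treated against Lipa-/- mice 0 were higher and 2 lower at 12-weeks, Steap3 and Slc11a2, and Tfr2 was higher and 0 were lower at 34-weeks. Of all tested genes, 20.2% were called higher and 9.06% lower in Lipa-/- against WT mice of 12-weeks, and 20.5% and 15.7% at 34-weeks. For treated against Lipa-/- mice these shares were 16.2% and 25.3% at 12-weeks and 12.8% and 18.6% at 34-weeks. Epor, the erythropoietin receptor, was at 0.386 to 1.36 CPM in all mice and was called in no comparison within a time point. Tfrc, the transferrin receptor of iron uptake, was at 14.3 to 33.1 CPM in WT, 30.9 to 41.8 CPM in Lipa-/- and 14.4 to 46.1 CPM in treated mice. Its log2 fold change in Lipa-/- against WT mice was 0.78 (SE 0.30) at 34-weeks, under the threshold of 1.

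In treated against WT mice, 6 of the 42 genes were called higher and 5 lower at 12-weeks, where 13.6% and 12% of all genes were. At 34-weeks 0 were called by edgeR (4 at an unadjusted p under 0.05 and 0 with DESeq2), beside 0.22% of all genes. The count of 12-weeks, 11 in all, was 6 without WT mouse 3 and 7 without treated mouse 10. Besides Uros and Tmod1 (2.44, SE 0.76), the genes higher at 12-weeks included Prdx2, the peroxiredoxin of red cells (1.83, SE 0.42, edgeR adjusted p = 0.00643), and Bnip3l, a receptor for removal of mitochondria (1.18, SE 0.29, edgeR adjusted p = 0.0081). Besides Alas1, those lower included Zfpm1, a partner of GATA1 (-3.38, SE 0.63, edgeR adjusted p = 0.00293), Epb41, the gene of protein 4.1 (-1.65, SE 0.39, adjusted p = 0.00698) and Slc25a37, the mitochondrial iron importer (-1.44, SE 0.33, adjusted p = 0.00603). Between treated and Lipa-/- mice, 13 were called higher and 11 lower at 12-weeks and 13 and 4 at 34-weeks, beside 16.2% and 25.3% of all genes at 12-weeks and 12.8% and 18.6% at 34-weeks. At 12-weeks, Tmem14c, a porphyrin transporter, was higher (1.80, SE 0.34) and Gypc, the gene of glycophorin C, lower (-1.75, SE 0.23).

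Genes that clear haemoglobin and haem were examined in a list of 10. In Lipa-/- against WT mice, 6 were called higher and 1 lower at 12-weeks, and 2 and 1 at 34-weeks, beside 20.2% and 9.06% of all genes at 12-weeks and 20.5% and 15.7% at 34-weeks. The latter count rose from 3 to 7 under scaling by total reads and to 5 with a trend in GC content and length removed. Hmox1, which encodes haem oxygenase 1, was at 7.54 to 19.2 CPM in WT and 74.1 to 127 CPM in Lipa-/- mice, with no overlap. Its log2 fold changes were 3.36 (SE 0.29, edgeR adjusted p = 2.36e-07) and 2.53 (SE 0.27, adjusted p = 1.8e-06). Hp, the gene of haptoglobin, which binds free haemoglobin in plasma and is made by hepatocytes in inflammation, was higher by 2.52 (SE 0.41, edgeR adjusted p = 0.000135) and 1.21 (SE 0.39, adjusted p = 0.0177). Cd163, the macrophage receptor for the haptoglobin and haemoglobin complex, was at 4.55 to 12.5 CPM in WT and 0.0368 to 0.662 CPM in Lipa-/- mice, with log2 fold changes of -5.05 and -4.74 (edgeR adjusted p = 0.000463 and 0.00028). Spic, a transcription factor of iron-recycling macrophages, was called higher at 12-weeks (3.01, SE 0.67, edgeR adjusted p = 0.0019).

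In treated mice of 12-weeks, 6 of the 10 clearance genes were called higher than in WT mice and 1 lower, beside 13.6% and 12% of all genes. They included Spic (2.67, SE 0.67), Hpx, the gene of haemopexin (2.18, SE 0.52), and Blvra, a biliverdin reductase (1.5, SE 0.38), while Cd163 was lower (-3.54, SE 0.89). The count of 7 was 3 without treated mouse 10. At 34-weeks, 0 of the 10 were called by edgeR (1 at an unadjusted p under 0.05, 0 with DESeq2), beside 0.22% of all genes. Against Lipa-/- mice, 0 were called higher and 3 lower in treated mice at 12-weeks, among them Hmox1 (-2.31, SE 0.27) and Slc48a1, a haem transporter (-1.51, SE 0.22). At 34-weeks, 1 was higher, Cd163 (3.94, SE 0.85), and 2 were lower, Hmox1 (-2.53, SE 0.27) and Hp (-1.38, SE 0.40). Of all genes, 16.2% were higher and 25.3% lower at 12-weeks and 12.8% and 18.6% at 34-weeks. Without treated mouse 12 of 34-weeks, 6 of the 10 were called.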

How the data were processed

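Liver RNA of 18 mice was sequenced (paired-end) after polyA selection. Per the labels and the study's methods, the authors assigned reads with Salmon to mouse transcripts of GRCm39 and summed them to genes with tximport in R 4.3.0. The deposited estimated counts are unscaled. TPM, deposited beside them, sum to the same total in each mouse, and the gene lengths deposited by the authors are mean effective transcript lengths in bases. A deposited table of the authors' own DESeq2 1.40.1 comparisons (log2 fold changes and p values) was not used. Replicates are separate mice.

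Counts were rounded and fitted in R 4.3.3 with edgeR 4.0.16 (TMM factors 0.587 to 1.69, quasi-likelihood, 6 group means, more than 100 reads over 18 mice, Benjamini-Hochberg adjustment over 14533 genes). The members and lists were chosen with earlier results of these data known. Named genes are the 8 members, Gata1, Epor, Tfrc, up to 4 called pathway and 3 clearance genes per direction with the largest change (mean of at least 1 CPM) in each comparison within a time point, pathway genes called in an interaction, the 5 genes most like the members, the 2 leading genes of each marker list, Lipa and hLIPA. Some genes that the rule also named are not reported here. Other genes (Ermap, Rhd, Ank1, Epo, Blvrb, Tfr2, Steap3, Slc11a2) were named after their values were seen. Alternatives were DESeq2 1.42.0 or edgeR with length offsets, total counts, no filter, filterByExpr, 2-group fits, adjusted p alone, summed paralogues, each mouse left out and the mouse number as a block. A trend in GC content and length (canonical transcript, both known for 98.4% of tested genes) was removed through offsets as an alternative chosen after seeing the data. The fits were tested on simulated data. Depth limits the sparse genes, and intervals cover counting error only.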

Additional observations from a re-analysis of the deposited data

Results flagged for a closer look

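A difference between treated and WT mice that itself changed from 12- to 34-weeks, tested as an interaction in edgeR over all tested genes, was called for 11 of the 42 tested red cell genes and 3 of the 10 clearance genes, and 18.4% of all genes were called. A positive value means that the difference was higher at 34-weeks. Zfpm1 was at 3.487 (edgeR adjusted p = 0.0241), Alas1 at 2.378 (0.032), Epb41 at 1.75 (0.0359), Slc25a37 at 1.552 (0.0318) and Ube2o, a ubiquitin ligase of late red cell precursors, at 1.483 (0.0427). Tmod1 was at -3.134 (edgeR adjusted p = 0.0496), Prdx2 at -2.419 (0.0243), Uros at -1.982 (0.0335), Bnip3l at -1.527 (0.026), Tmem14c at -1.42 (0.0464) and Slc25a38, a mitochondrial glycine carrier of haem synthesis, at -1.392 (0.0255). Of the clearance genes, Hpx was at -2.368 (edgeR adjusted p = 0.0332), Blvra at -1.843 (0.0304) and Blvrb, a second biliverdin reductase, at -1.833 (0.0246).

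All 14 lost their call without treated mouse 9 of 34-weeks, with edgeR adjusted p values from 0.0696 to 0.12. The share of all genes called without a mouse was not computed, so these losses cannot be called particular to the listed genes. Of the red cell genes, 0 were also called without WT mouse 1 of 34-weeks, WT mouse 1 of 12-weeks or WT mouse 3 of 12-weeks, 1 without treated mouse 10 of 12-weeks and 5 without treated mouse 11 of 34-weeks. Of the clearance genes, 0 were called without treated mouse 9 of 34-weeks, the same 3 WT mice or treated mouse 10 of 12-weeks, and 1 without treated mouse 11 of 34-weeks, against 5 without treated mouse 12 of 34-weeks. With a trend in GC content and length removed, 9 of the 14 were called, and Tmem14c, Tmod1, Bnip3l, Ube2o and Blvra were not. The time points differ in study code as well as in time, and the part of either was not tested.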

How the results depend on the processing

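Which of the 7 tested members were called depended on the scaling and on single mice. The shares of all genes called under these alternatives were not computed. Between Lipa-/- and WT mice of 12-weeks, 2 were called in place of 1 with DESeq2, with total counts and with the GC and length trend removed. At 34-weeks, 6 were called with total counts and 7 in the 2-group fit in place of 3, and 1 to 3 with a mouse left out. Between treated and WT mice of 12-weeks, DESeq2 and total counts called 1 in place of 0, as they did between treated mice of 34- and 12-weeks, where leaving out a mouse gave 0 to 2. Between treated and Lipa-/- mice of 34-weeks, 1 to 7 were called with a mouse left out, and in the interaction of treated mice 0 to 1.

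Pathway calls moved to 19 between Lipa-/- and WT mice of 12-weeks and to 20 between the time points of treated mice by adjusted p alone. DESeq2 called 2 in the interaction of Lipa-/- mice. With a mouse left out, the pathway counts were 6 to 12 between treated and WT mice of 12-weeks, 0 to 1 between the time points of Lipa-/- mice and 0 to 11 in the interaction of treated mice.

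Clearance calls between Lipa-/- and WT mice of 34-weeks were 7 with total counts, 6 by adjusted p alone, 5 with the trend removed and 2 to 5 with a mouse left out. Between treated and WT mice of 12-weeks they were 4 with total counts or the trend removed, and 3 to 7 with a mouse left out. Between treated and Lipa-/- mice they were 5 at 12-weeks with DESeq2 or adjusted p alone, and at 34-weeks 6 with total counts, 5 with the trend removed and 3 to 6 with a mouse left out. Between the time points of treated mice they were 3 with total counts or the trend removed and 3 to 5 with a mouse left out. In the interaction of treated mice they were 5 with DESeq2, 1 with total counts and 0 to 5 with a mouse left out.

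The ratio of mean summed globin between Lipa-/- and WT mice of 34-weeks moved from 2.38 to 3.77 (TPM) and 3.65 (total counts). Between treated and Lipa-/- mice of 12-weeks it moved from 1.405 to 0.658 and 0.78, so its direction turned with the scaling.

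Signs turned for genes that were not called. Epor in treated against Lipa-/- mice was at -0.46 and -0.20 with total counts. Tfrc in treated against WT mice of 12-weeks was at -0.21 with total counts, -0.051 with the trend removed and -0.12 without treated mouse 10 (range with a mouse left out -0.12 to 0.34). At 34-weeks it was at -0.0083 with DESeq2, -0.0072 with length offsets in edgeR, -0.23 without WT mouse 1 and -0.37 without treated mouse 12 (range -0.37 to 0.26), and in treated against Lipa-/- mice of 12-weeks at 0.047, 0.0032 and, without treated mouse 11, 0.023 (range -0.39 to 0.023). The cause was not tested.

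Mouse numbers are shared only across time points, between different mice. Deviations of same-numbered mice correlated at -0.31 to 0.563, so the numbers did not pair the samples. With the number as a replicate block, treated mice (2 pairs) had 7 pathway calls and 1 clearance call between the time points in place of 13 and 5, and WT mice and the members kept counts of 0.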
